A study of Mus musculus with 7 samples.

Results

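The retinol dehydrogenase genes described here are those for which the array's annotation gave a probe set exactly 1 symbol and that symbol was Rdh5, Rdh10, Rdh11, Rdh12, Rdh14, Rdh1, Rdh7, Rdh9, Rdh16 or Dhrs7. All 10 were measured, among 5017 genes in all, by 50 probe sets of the 65535 in the deposited table. Of the 5017, 4918 lie on chromosomes 1, 10, 11, 12 and 13, so shares of all genes given below cover only part of the genome. RNA came from retinal pigment epithelium (RPE), the pigmented cell sheet behind the photoreceptors, taken from mouse pups at postnatal day 5 and hybridised to 7 Affymetrix arrays. There were 3 arrays of Dicer1-deficient RPE, whose genotype is given as Dicer1loxP/loxP;Dct-Cre, and 4 arrays labelled control RPE, whose own genotype is not stated. All pups came from matings of Dicer1 flox/+ Dct cre with Dicer1 flox/flox mice, so every pup of either group carried at least 1 floxed Dicer1 allele. Cre was driven by the promoter of Dct, a melanin synthesis gene of pigment cells, which include melanocytes as well as RPE. Nothing in the labels says whether an array held 1 animal or a pool, and p-values therefore reflect variation among 7 samples that could be technical in part.

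Dicer1 encodes the ribonuclease that cuts microRNA precursors into mature microRNAs. Retinol dehydrogenases are membrane-bound enzymes of the short-chain dehydrogenase family that interconvert retinols and retinals. In the eye they carry out the redox steps of the visual cycle: the RPE oxidises 11-cis-retinol to 11-cis-retinal, the chromophore of visual pigments, and photoreceptors reduce the all-trans-retinal left after light absorption. In embryonic tissues the oxidation of all-trans-retinol to retinal is the first step of retinoic acid synthesis.

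Values are log2 signals as the authors deposited them, with a lower quartile of 4.63, a median of 6.22 and an upper quartile of 8.13 over the whole table. A gene's level is the mean over its probe sets, and since probe sets differ in affinity, levels of different genes are not amounts of RNA to be set against each other. Control 4 stood apart, with a correlation of 0.942 to 0.951 with the other arrays and a median of 6.05 against 6.22 to 6.26 in the others, so results that rest on it are given with and without it. Dicer1 itself averaged 8.23 ± 0.02 in Dicer1-deficient (SD, n = 3) and 8.28 ± 0.12 in control arrays (SD, n = 4) over 28 probe sets, a difference of -0.04 (limma adjusted p = 0.921), and the labels do not say which of its exons are floxed. Of the RPE markers, Kcnj13, the apical Kir7.1 potassium channel gene, read 9.67 to 10.04 in Dicer1-deficient and 10.72 to 11.18 in control arrays, and Pmel, the melanosome fibril gene, averaged 11.10 ± 0.06 in Dicer1-deficient and 11.31 ± 0.06 in control arrays, above the upper quartile. Rpe65, Rlbp1 and Lrat, which define the visual cycle in RPE, were not analysed here.

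Rdh5 and Rdh10, the 2 members whose probe sets all lay above the upper quartile of the table, fell in Dicer1-deficient RPE, and no member rose. Rdh5 was 1.65-fold lower and Rdh10 1.46-fold lower in Dicer1-deficient RPE, and each of these passed the test across all genes (limma, Benjamini-Hochberg adjusted p under 0.05). That is 2 of 10 members, where 2.83% of all genes were called lower and 3.03% higher. Arrays of the groups did not overlap for the same 2 members, both lower, against 8.65% of all genes with no overlap and a lower value. The median difference over the 10 members was -0.10, against -0.01 over all genes, and 7 of 10 differences were negative, against 54.4% of all genes. This lean rested on control 4. Without it the median was 0.001 over the members and 0.004 over all genes. In that fit 5 of 10 member differences were negative, as were 2441 of 5017 over all genes.

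**Figure D1:**
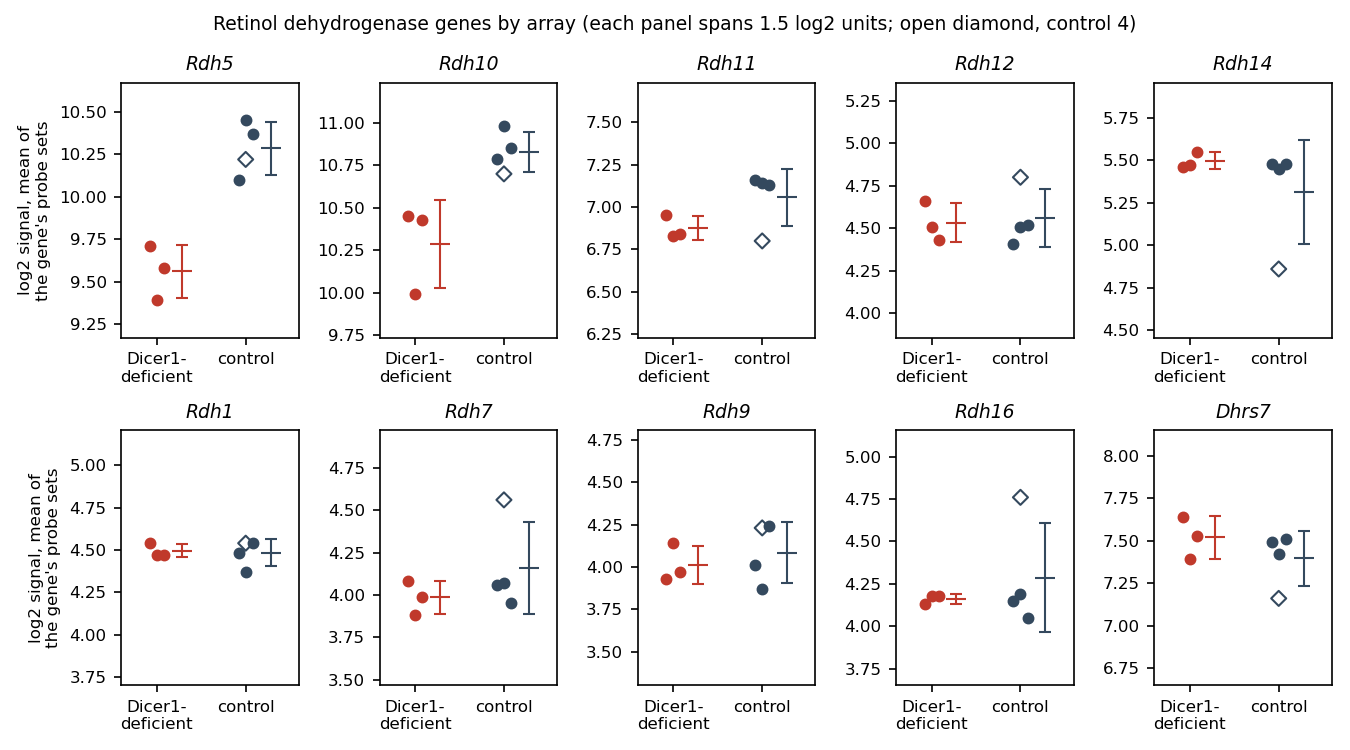
Log2 signal (y axis, mean over the probe sets of each gene) in every array, with Dicer1-deficient arrays at left and control arrays at right, control 4 as an open diamond, and bars for mean ± SD. Rdh5 and Rdh10 are the panels in which the groups do not overlap, and control 4 lies apart from the other controls in the panels of Rdh11, Rdh14, Rdh7 and Rdh16.

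Rdh5 encodes the 11-cis-retinol dehydrogenase of the RPE, mutated in human fundus albipunctatus, a form of night blindness. Its level was 9.71, 9.39 and 9.58 in the Dicer1-deficient arrays, against 10.10, 10.45, 10.37 and 10.22 in the control arrays. All Dicer1-deficient arrays lay below all controls, and control 4 lay within the range of the other controls. The means were 9.56 ± 0.16 in Dicer1-deficient (SD, n = 3) and 10.29 ± 0.16 in control RPE (SD, n = 4), a log2 difference of -0.72 (SE 0.11, 95% interval -0.98 to -0.47, limma adjusted p = 0.00612).

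All 5 probe sets of Rdh5 were above the upper quartile of the table and all 5 were lower in Dicer1-deficient RPE, by different amounts. Probe set 10373593 read 9.03, 8.99 and 8.88 in Dicer1-deficient arrays, against 9.71, 10.13, 10.05 and 10.03 in control arrays, a difference of -1.01 (limma adjusted p over all probe sets = 0.0224). Probe set 10373589 had a difference of -0.90 (adjusted p = 0.0378) and probe set 10373592 one of -0.93 (adjusted p = 0.0747). The groups did not overlap at any of the 3. The brightest, probe set 10373591, read 10.93, 10.70 and 10.84 in Dicer1-deficient arrays, against 10.99, 11.35, 11.26 and 11.21 in control arrays, a difference of -0.38 (adjusted p = 0.323) with control 1 just above the highest Dicer1-deficient array. At probe set 10373590, the second brightest, the difference was -0.40 and control 4 fell among the Dicer1-deficient arrays. Whether the probe sets of a gene differ in their change was tested with limma's diffSplice over 4470 genes, of which 1.36% were called. None of the 10 members was called, and Rdh5 (limma diffSplice adjusted p = 0.34) was the only 1 with an unadjusted p under 0.05 in the fit to all arrays. Without control 4, 3 members had an unadjusted p under 0.05, Rdh16, Rdh14 and Rdh5 (limma diffSplice adjusted p = 0.134, 0.145 and 0.166), and again none was called. The share of all genes with an unadjusted diffSplice p under 0.05 was not counted in either fit, so these member counts have no background to be read against. The 2 probe sets past the limma test were the only ones among the 50 of the family, where 0.323% of all probe sets were called lower and 0.533% higher. The groups did not overlap at 12 of the 50 with lower values, 4 of them of Rdh5 and 6 of Rdh10, and at 2 with higher values, against 6.1% and 7.25% of all probe sets.

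Rdh5 lies on chromosome 10 and overlaps its neighbour Bloc1s1 in the RefSeq gene table. Bloc1s1, which encodes a subunit of the complex that forms melanosomes and other lysosome-related organelles, was lower too. Its level was 8.71, 8.45 and 8.63 in Dicer1-deficient arrays, against 9.07, 9.07, 9.05 and 8.86 in control arrays, a difference of -0.42 (limma adjusted p = 0.0351). The groups did not overlap. At its brightest probe set the difference was -0.19 and did not pass (limma adjusted p = 0.433). Both genes are on the minus strand, with Bloc1s1 starting 4227 bases upstream of Rdh5, and whether a transcript of 1 gene reaches probe sets of the other was not tested. Cd63, the tetraspanin gene on the other side of Rdh5, had 8.94 ± 0.07 in Dicer1-deficient and 9.10 ± 0.05 in control arrays (difference -0.16, limma adjusted p = 0.349).

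The stretches of 250 bases before the starts of Rdh5 and of Bloc1s1 are shown because both genes were called lower and lie side by side, and the one before a start of Rdh11 because Rdh11 was called lower in the fit without control 4. They are from RefSeq on GRCm38.p6, each on the minus strand, at chr10:128919298-128919547, chr10:128923525-128923774 and chr12:79190962-79191211. Capitals mark matches on either strand to TAATCC, bound by homeodomain proteins of the Otx type, and to CACGTG and CATGTG, E-boxes of the kind bound by Mitf, and no 2 matches overlap.
Rdh5: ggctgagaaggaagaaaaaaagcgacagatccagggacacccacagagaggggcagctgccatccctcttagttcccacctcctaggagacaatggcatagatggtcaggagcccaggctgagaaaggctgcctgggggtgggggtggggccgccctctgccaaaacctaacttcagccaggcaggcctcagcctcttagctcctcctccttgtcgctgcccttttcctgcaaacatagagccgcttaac
Bloc1s1: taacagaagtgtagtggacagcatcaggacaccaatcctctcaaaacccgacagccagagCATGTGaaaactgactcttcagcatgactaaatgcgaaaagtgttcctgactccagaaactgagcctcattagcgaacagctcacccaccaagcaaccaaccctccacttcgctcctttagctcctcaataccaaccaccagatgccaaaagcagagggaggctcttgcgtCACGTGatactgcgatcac
Rdh11: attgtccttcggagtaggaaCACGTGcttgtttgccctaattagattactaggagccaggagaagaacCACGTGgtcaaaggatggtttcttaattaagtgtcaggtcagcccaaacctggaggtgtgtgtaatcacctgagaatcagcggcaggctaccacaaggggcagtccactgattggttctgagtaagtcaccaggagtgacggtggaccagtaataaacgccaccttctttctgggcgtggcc
The Rdh5 stretch held no match to any of these motifs. The Bloc1s1 stretch held CACGTG once, 19 bases before the start, and CATGTG once, 190 bases before it. The Rdh11 stretch shown held CACGTG at 230 and at 182 bases before the start. The stretch before another start of Rdh11, at chr12:79191856-79192105, held no match and is not shown. Among 32851 stretches of this length in the table, 6.3% held TAATCC, 6.0% CACGTG and 12.3% CATGTG, and 9 of the 10 members matched the table, all but Rdh10. Of the 11 stretches of these members, 6 held a match to at least 1 of the motifs, against 22.9% of all stretches. Besides Rdh11, they were those of Rdh1 and Rdh16, with GGATTA, the other strand of TAATCC, at 8 and at 217 bases before the start, Rdh7, with TAATCC at 12 bases, Rdh9, with CACGTG at 201 bases, and Rdh14, with CATGTG at 120 bases. The stretch before another start of Rdh7 held no match. A match is a string of letters and not a binding site.

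Rdh10 encodes an all-trans-retinol dehydrogenase of RPE and Mueller glia, and in the mouse embryo it supplies the retinal for retinoic acid synthesis. Its level was 10.45, 9.99 and 10.43 in Dicer1-deficient arrays, against 10.79, 10.98, 10.85 and 10.70 in control arrays. Every Dicer1-deficient array lay below every control, with Dicer1-deficient array 2 the lowest and control 2 the highest, as they also were for Rdh5. The means were 10.29 ± 0.26 in Dicer1-deficient (SD, n = 3) and 10.83 ± 0.12 in control RPE (SD, n = 4), a difference of -0.54 (SE 0.13, 95% interval -0.83 to -0.26, limma adjusted p = 0.0383).

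The 7 probe sets of Rdh10, all above the upper quartile of the table, were lower by similar amounts, from -0.72 to -0.37. At 6 of the 7 the groups did not overlap. None passed limma over all 65535 probe sets, where the smallest adjusted p was 0.133, and 6 had an unadjusted p under 0.05. The 7 probe sets read 1 gene on the same arrays and are not independent. The share of all probe sets with an unadjusted p under 0.05 was not counted. The diffSplice test called no difference in change among them (limma adjusted p = 1). Probe set 10344958 read 10.51, 9.88 and 10.43 in Dicer1-deficient arrays, against 10.96 to 11.02 in the 4 control arrays, the largest difference of the 7 at -0.72. The neighbours of Rdh10 on chromosome 1, Stau2, an RNA-binding protein gene, and Rpl7, a ribosomal protein gene, had differences of -0.14 and 0.05 (limma adjusted p = 0.547 and 0.975). Without control 4, Stau2 passed as lower (limma adjusted p = 0.046), in a fit that called 10.3% of all genes lower.

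The 2 calls were not equally firm. With each array left out in turn, Rdh5 passed limma over all genes in 7 of 7 fits, with differences of -0.80 to -0.64. Rdh10 passed in 1 of 7, the fit without control 4 (-0.58, adjusted p = 0.0172), and the other 6 gave differences of -0.62 to -0.39 with adjusted p from 0.0689 to 0.121. With the brightest probe set of each gene in place of the mean, neither passed: Rdh5 had a difference of -0.38 (limma adjusted p = 0.178) and Rdh10 one of -0.37 (adjusted p = 0.159), and 0.917% of all genes were called lower and 1.42% higher.

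**Figure D2:**
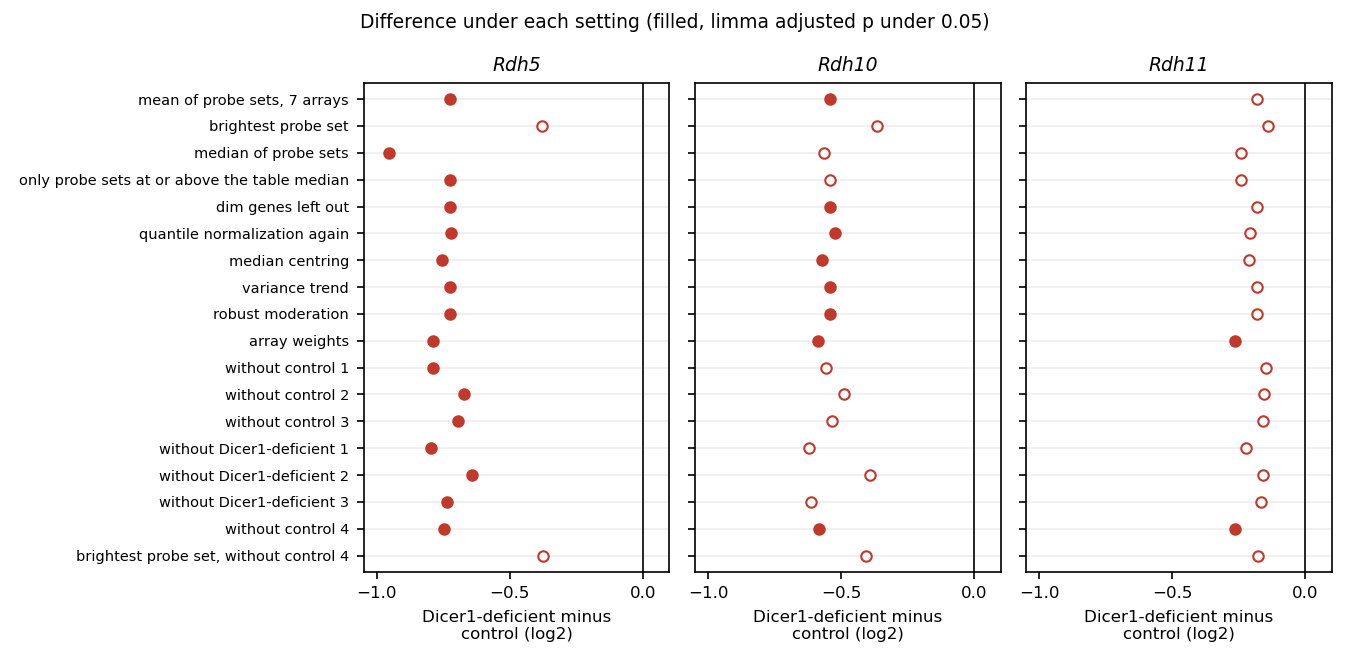
Difference between Dicer1-deficient and control RPE (x axis, log2 scale) for Rdh5, Rdh10 and Rdh11 under each setting (y axis), with filled points where limma's adjusted p was under 0.05. All points lie below 0, those of Rdh5 between -0.95 and -0.38, and the filled points number 16 for Rdh5, 8 for Rdh10 and 2 for Rdh11.

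Rdh11 encodes a microsomal retinol dehydrogenase of RPE and photoreceptors that accepts both cis and trans retinoids. Its level was 6.95, 6.83 and 6.84 in Dicer1-deficient arrays, against 7.16, 7.14, 7.13 and 6.80 in control arrays. Controls 1 to 3 lay together above all Dicer1-deficient arrays, and control 4 lay below them all. With all arrays the difference was -0.18 (SE 0.10, 95% interval -0.42 to 0.05, limma adjusted p = 0.451). Without control 4 it was -0.27 (SE 0.06, limma adjusted p = 0.0174), in a fit that called 10.3% of all genes lower and 6.74% higher. In that fit 3 of 10 members were called lower, Rdh5 (-0.75), Rdh10 and Rdh11, and none higher. Of the 10 probe sets of Rdh11, 8 were lower with all arrays, and at 10401182 alone the groups did not overlap, at 6.73, 6.64 and 6.54 in Dicer1-deficient arrays, against 7.01, 7.18, 7.52 and 7.11 in control arrays (difference -0.57, limma adjusted p = 0.188). Vti1b, a vesicle fusion gene next to Rdh11 on chromosome 12, also had controls 1 to 3 above all Dicer1-deficient arrays. Its control 4 read 6.43, level with the lowest of the Dicer1-deficient arrays at 6.43 to 6.58. The difference was -0.20 (limma adjusted p = 0.422), with a limma adjusted p of 0.024 without control 4.

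**Figure D3:**
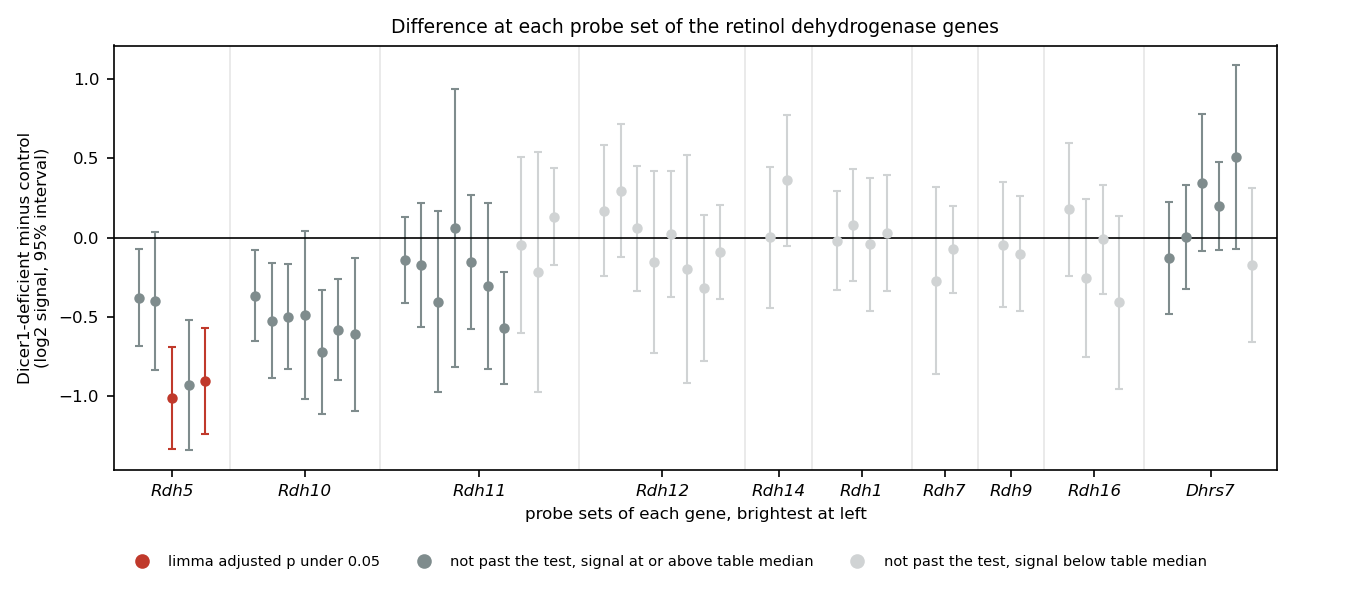
Difference between Dicer1-deficient and control RPE (y axis, log2 scale, with 95% limma intervals) at each of the 50 probe sets, grouped by gene along the x axis with the brightest at left. Rdh5 has 2 probe sets past limma over all probe sets, the 7 of Rdh10 lie between -0.72 and -0.37, and the dim probe sets of the other genes lie on both sides of 0.

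Rdh12 encodes the all-trans-retinal reductase of photoreceptor inner segments, mutated in human Leber congenital amaurosis. Its level was 4.66, 4.51 and 4.43 in Dicer1-deficient arrays, against 4.41, 4.51, 4.52 and 4.80 in control arrays. The groups overlapped, and the difference was -0.03 (SE 0.11, 95% interval -0.27 to 0.22, limma adjusted p = 0.975). None of its 8 probe sets reached the median of the table and 6 were below the lower quartile, so that its transcript was not shown to be above background. Of the rod and cone genes, 6 were measured and none passed limma, though 3 had an unadjusted p under 0.05, as did 16.9% of all genes: Sag, the rod arrestin gene (0.64), Rp1, a photoreceptor axoneme gene (0.50), and Pde6g, a rod phosphodiesterase subunit gene (0.86). Zfyve26, which follows Rdh12 on chromosome 12 and encodes the lysosomal protein spastizin, rose to 6.93 ± 0.06 in Dicer1-deficient arrays, against 6.39 ± 0.15 in control arrays (difference 0.54, limma adjusted p = 0.0131).

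Rdh14, which encodes a further retinol dehydrogenase related to those of Rdh11 and Rdh12, was measured by 2 probe sets, both below the median of the table. Its level was 5.46, 5.47 and 5.55 in Dicer1-deficient arrays, against 5.48, 5.45, 5.48 and 4.86 in control arrays. All arrays but control 4 lay close together, and the difference of 0.18 (limma adjusted p = 0.684) was 0.03 without that array (SE 0.05, adjusted p = 0.775).

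Dhrs7, which encodes a related reductase of retinals and steroids in the endoplasmic reticulum, read 7.64, 7.39 and 7.53 in Dicer1-deficient arrays, against 7.49, 7.42, 7.51 and 7.16 in control arrays. The groups overlapped, with a difference of 0.13 (SE 0.11, 95% interval -0.12 to 0.37, limma adjusted p = 0.699). Of its 6 probe sets, 5 reached the median of the table, and their differences ran from -0.18 to 0.51 over all 6. The largest, at probe set 10400945, came from 7.71, 7.61 and 7.73 in Dicer1-deficient arrays, against 7.69, 7.32, 7.15 and 6.54 in control arrays, which overlapped (limma adjusted p = 0.517).

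Rdh1, Rdh9, Rdh16 and Rdh7 lie near each other on chromosome 10 and encode mouse enzymes of liver and kidney that oxidise retinol and steroids. None of their 12 probe sets reached the median of the table, 9 lay below the lower quartile, and none of these genes was shown to be above background. Rdh1 averaged 4.50 ± 0.04 in Dicer1-deficient (SD, n = 3) and 4.48 ± 0.08 in control arrays (SD, n = 4), with a 95% interval for the difference of -0.17 to 0.19. Rdh9 averaged 4.01 in Dicer1-deficient and 4.08 in control arrays, and its difference was -0.07 (limma adjusted p = 0.869). Rdh7 read 4.08, 3.88 and 3.99 in Dicer1-deficient arrays, against 4.06, 4.07, 3.95 and 4.56 in control arrays. Rdh16 read 4.13, 4.18 and 4.18 in Dicer1-deficient arrays, against 4.15, 4.19, 4.05 and 4.76 in control arrays. Control 4 was the highest array for both, and their differences of -0.17 and -0.13 (limma adjusted p = 0.676 and 0.831) were -0.04 and 0.03 without it. These paralogs resemble each other in sequence, and whether their probes bind each other's transcripts was not tested. Of 13 measured genes that neighbour a member without belonging to the family, Bloc1s1 fell, Zfyve26 rose and 11 did not pass limma, with differences from -0.23 to 0.08. Of these 11, Vti1b and Stau2 passed limma without control 4, both lower.

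Few other genes of retinoid metabolism were among the 5017 with values, nearly all of which lie on chromosomes 1, 10, 11, 12 and 13. None of those few passed. Of 44 genes of a list of retinoid metabolism and transport, 4 were measured, with none past limma and none with an unadjusted p under 0.05. They were Degs1 (0.06), which acts as a retinol isomerase in vitro besides its part in ceramide synthesis, Aldh8a1 (-0.05), a retinal dehydrogenase gene, and the chromosome 10 relatives Rdh19 (-0.23) and Rdh18-ps (-0.12). Without control 4 the differences of Rdh19 and Rdh18-ps were -0.024 and 0.026. Of 20 retinoic acid receptors and targets, 4 were measured, and none passed, again with none at an unadjusted p under 0.05. Rara, a retinoic acid receptor gene, averaged 7.18 ± 0.04 in Dicer1-deficient and 7.02 ± 0.11 in control arrays without overlap (difference 0.16, limma adjusted p = 0.401), Rxrg had a difference of 0.07, Hoxb1 of -0.10 and Ncor1 of 0.01.

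Among 17 measured short-chain dehydrogenases outside the family, 2 rose, none fell, and the median difference was 0.03. Dhrs11, a steroid and carbonyl reductase gene, averaged 7.50 ± 0.07 in Dicer1-deficient (SD, n = 3) and 7.02 ± 0.11 in control arrays (SD, n = 4), a difference of 0.48 (limma adjusted p = 0.0134). Kdsr, whose product reduces ketosphinganine in ceramide synthesis, averaged 9.10 ± 0.10 in Dicer1-deficient and 8.63 ± 0.13 in control arrays, a difference of 0.47 (adjusted p = 0.0233). Of the others, Dhrs7b (0.28), Uxs1 (-0.23), Mat2b (0.21) and Hsd17b7 (0.25) had the smallest p. With the brightest probe sets none of the 17 passed limma, with 2 at an unadjusted p under 0.05, as had 725 of 5017 genes. Without control 4 there were 5 calls, 3 higher and 2 lower, in a fit that called 6.74% of all genes higher and 10.3% lower. Members and lists are described by counts, and the difference between them was not tested.

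Cell type markers also differed between the groups. The mean of 8 RPE markers was 7.80 to 8.09 in Dicer1-deficient arrays, against 8.22 to 8.40 in control arrays, and 6 of the 8 were lower, with Kcnj13 past limma (-1.18, adjusted p = 0.000811) and Slc24a4 (-0.70), Mlph (-0.47) and Mreg (-0.39), which are pigment cell genes, not. In bulk tissue, fewer cells of a type and less RNA per cell cannot be told apart. The mean of 4 melanocyte and Schwann cell markers was 6.07 to 6.17 in Dicer1-deficient arrays, against 6.50 to 6.72 in control arrays. Within it the neural crest lineage genes Pax3 (difference -0.91, limma adjusted p = 0.00336) and Erbb3 (difference -0.39, adjusted p = 0.017) fell, and Cdh19 (-0.40) and S100b (-0.28) did not pass.

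The mean of 11 fibroblast and scleral markers was 9.22 to 9.48 in Dicer1-deficient arrays, against 9.58 to 9.83 in control arrays, with all 11 lower and 3 called, the proteoglycan genes Fmod (-0.82) and Omd (-0.57) and the mesenchymal factor Twist1 (-0.56). Col1a1 (-0.36), Prrx1 (-0.30) and Col3a1 (-0.27) did not pass. The mean of 5 Mueller glia markers, a cell type that also uses Rdh10, overlapped between the groups at 7.07 to 7.87 in Dicer1-deficient and 6.82 to 7.37 in control arrays. All 5 had positive differences, with Sox9, also an RPE transcription factor, past limma (0.33, adjusted p = 0.0461) and Glul (0.27), Abca8a (0.17) and Gfap (0.83) not. Gfap, which weighs on that mean, spread widely, at 5.05 to 8.33 in Dicer1-deficient and 4.28 to 7.01 in control arrays. The groups did not overlap for Sox9 and Glul, both higher, and overlapped for the other Mueller glia markers. The 6 photoreceptor markers averaged 4.74 to 5.28 in Dicer1-deficient and 4.48 to 4.95 in control arrays. With the brightest probe sets, limma called 1 of the 8 RPE markers, Kcnj13 (-1.19, adjusted p = 0.005), and 0 of the 4 melanocyte and Schwann cell, 0 of the 11 fibroblast and scleral, 0 of the 5 Mueller glia and 0 of the 6 photoreceptor markers, with 4, 2, 4, 0 and 2 at an unadjusted p under 0.05. Over all genes, 725 of 5017 had an unadjusted p under 0.05 with the brightest probe sets. There Pax3 and Erbb3 had limma adjusted p = 0.064 and 0.067, Fmod, Omd and Twist1 0.124, 0.059 and 0.125, and Sox9 0.351. The fibroblast and scleral markers were then 9 lower and 2 higher, with a median difference of -0.14, against -0.305 for the mean of probe sets. Without control 4, limma called 3 of the 8 RPE, 3 of the 4 melanocyte and Schwann cell and 8 of the 11 fibroblast and scleral markers, all lower, and 2 of the 5 Mueller glia markers, both higher. That fit called 10.3% of all genes lower and 6.74% higher. The part of these cell types in the differences of Rdh5 and Rdh10 was not tested.

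The genes whose levels over the 7 arrays were most like those of Rdh5 by Pearson correlation were Plk5 (0.992), a polo-like kinase gene, Inpp5k (0.986), an inositol phosphatase gene, and Fgf11 (0.985), a fibroblast growth factor homolog. All 3 fell in Dicer1-deficient RPE, with log2 differences of -0.55, -1.14 and -0.33 (limma adjusted p = 0.0134, 0.000237 and 0.0389), and with the brightest probe sets Plk5 did not pass (-0.34, limma adjusted p = 0.847). For Rdh10 they were Hid1 (0.989), a gene of dense core vesicle formation, Sned1 (0.981), an extracellular matrix gene, and Abca7 (0.977), a lipid transporter gene, with differences of -0.43, -0.38 and -0.22 that did not pass limma (adjusted p = 0.0659, 0.0522 and 0.174). The correlations include the difference between the groups and were picked as the highest of all genes, so they are a description only.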

How the data were processed

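Biotin-labelled total RNA of 7 RPE samples was hybridised to Affymetrix arrays. The values the authors deposited are log2 signals, as their range of 2.71 to 13.5 shows, and the submitters' processing notes name RMA and Partek 6.6 without their roles. The sources used here name no genome build, probe alignment or filter. Of 65535 probe sets, 53644 had 1 symbol, 877 several and 11014 are unnamed here. Symbols were updated through RefSeq (GRCm38.p6): 4321 current, 698 updated, 13 unmatched. The 5017 genes include 4918 on chromosomes 1, 10, 11, 12 and 13.

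Groups came from the labels, and replicate numbers follow accession order and pair no arrays. Per gene (the mean of its probe sets) and per probe set, groups were compared with limma 3.58.1 in R 4.3.3 (lmFit and eBayes, two-sided tests, adjusted by Benjamini-Hochberg over all genes or all probe sets, threshold 0.05, no filter, 4.38 prior and 5 residual degrees of freedom for genes). Differences among probe sets of a gene used diffSplice. Members and lists were chosen with earlier results of these data known. Named genes are all members, their neighbours, listed genes that passed, up to 4 more per pathway list and 3 per marker list with the smallest p, and the 3 genes most correlated with Rdh5 and with Rdh10. Kcnj13, Pmel and Dicer1 check the samples, and Pmel was named outside that rule. The number of arrays limits the precision, and no detection calls were used here. Alternatives changed the probe set summary, filter, normalization, moderation, weights, arrays and threshold.

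On simulated data with the same genes and group sizes, the limma code recovered 66% of log2 changes of 0.5, 94.8% of 1 and 99.5% of 2. Smaller changes were not simulated. The diffSplice code recovered 89.5% of genes with 1 probe set shifted by 2 log2 units, where the probe sets of a gene shared 1 noise level. It made more false calls than its threshold allows where simulated noise differed between the probe sets of a gene. Smaller shifts, such as those among the probe sets of Rdh5, were not simulated. Figures used Python 3.11.15, pandas 2.3.3 and matplotlib 3.10.9.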

Additional observations from a re-analysis of the deposited data

Results flagged for a closer look

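Among 64 genes named or counted here, control 4 lay far from the other 3 controls in 7. In each, its gap divided by the range of the controls exceeded Dixon's critical value. At that value chance flags about 1 in 20 genes, counting any of the controls at either end and not control 4 alone. The genes share the same arrays and are not independent. Control 4 was the lowest control for Rdh11 (0.922), Rdh14 (0.943), Bloc1s1 (0.876), Rpl7 (0.838), Gpr182 (0.922), a receptor gene next to Rdh1, and Sox9 (0.94). It was the highest for Rdh19 (0.934). No other control array stood apart in this way for any of the 64.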

How the results depend on the processing

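Members called numbered 2, and this was 0 with brightest probe sets, with or without control 4 (the latter added after the data were seen), 1 with the median of probe sets, 1 with only probe sets at or above the table median, where Rdh10 kept its difference of -0.54 with an adjusted p of 0.0508, 1 at a threshold of 0.01, and 1 to 3 with single arrays left out. All genes called numbered 294, and 117 with brightest probe sets, 176 with the median, 981 with array weights, 449 at a threshold of 0.1, 94 at 0.01 and 121 to 853 with single arrays left out, the highest without control 4. Short-chain dehydrogenases outside the family numbered 2 called, 0 with brightest probe sets and 5 without control 4. Rdh11 passed limma with array weights (-0.26, adjusted p = 0.00998) and without control 4. Rdh5, Rdh10, Rdh11 and Rdh7 kept their sign in every alternative that gave them a value. The other members, none of which passed limma in any alternative, changed sign in some of them. With brightest probe sets Rdh12 gave 0.17, Rdh1 -0.022, Rdh16 0.18 and Dhrs7 -0.13. With these and without control 4, Rdh12 gave 0.15, Rdh1 -0.088, Rdh16 0.32, Dhrs7 -0.13, Rdh14 -0.17 and Rdh9 0.011. Rdh1 gave -0.019 with median centring, and with array weights Rdh12 gave 0.018 and Rdh16 0.025. With single arrays left out Rdh1 ran from -0.025 to 0.031, Rdh12 from -0.092 to 0.053 and Rdh16 from -0.204 to 0.032. The causes were not tested. Filtering dim genes left no value for Rdh12, Rdh1, Rdh7, Rdh9 and Rdh16. No paired analysis was possible because the labels number no replicates. Rdh12, Rdh14, Rdh1, Rdh7, Rdh9 and Rdh16 had every probe set below the table median, so a signal above background was not established for them, which limits what their differences show.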
